A study of Homo sapiens with 9 samples.

Results

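The alpha-arrestins are a small family of adaptor proteins that share the arrestin fold, and 5 genes that encode them, ARRDC1, ARRDC2, ARRDC3, ARRDC4 and TXNIP, were followed in renal carcinoma cells with and without active HIF2α. They were picked by name from the 58735 genes of the count table, with the values of all comparisons already known, so their levels and fold changes are given as a description and no p is attached to them. RNAseq was carried out in 9 libraries of 786-0 cells, a clear cell renal carcinoma line without working VHL or HIF1α, in which HIF2α is always present. WT is the untreated parental line (n = 3), PT2385 is the same line given 10 μM of the HIF2α antagonist PT2385 (n = 3) and KO is a HIF2α knockout of the line without drug (n = 3). All cells were kept for 48 h in 21% oxygen and in medium with 5 mM glucose and 10% serum, and how the knockout was made and whether it is a single clone are not given in the sources used here.

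Alpha-arrestins carry PPxY motifs that recruit ubiquitin ligases of the NEDD4 family to membrane proteins, which are then internalized or sorted to the lysosome. TXNIP is also known for binding thioredoxin and for restraining glucose uptake through GLUT1, and together with ARRDC4 it is a classic target of the glucose-sensing factors MondoA and ChREBP. ARRDC3 is known as an adaptor for membrane receptors and integrin β4, and ARRDC1 for the budding of small vesicles from the plasma membrane. In clear cell carcinoma the loss of VHL stabilizes HIF2α, and PT2385 prevents HIF2α from pairing with HIF1β.

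The sequence upstream of a member is shown where the counts below either differ most or vary most, with RefSeq starts on GRCh38.p14. The lines hold the 250 bases before the start of ARRDC3 (chr5:91383318-91383567, minus strand), of TXNIP (chr1:145996580-145996829, minus strand) and of ARRDC4 (chr15:97960453-97960702, plus strand). Capitals in TXNIP mark a carbohydrate response element, that is a pair of CACGNG half-sites with 5 bases between them. Capitals in ARRDC4 mark ACGTG or GCGTG on either strand, the core letters that HIF recognises, and ARRDC3 has no capitals because it held neither.
ARRDC3: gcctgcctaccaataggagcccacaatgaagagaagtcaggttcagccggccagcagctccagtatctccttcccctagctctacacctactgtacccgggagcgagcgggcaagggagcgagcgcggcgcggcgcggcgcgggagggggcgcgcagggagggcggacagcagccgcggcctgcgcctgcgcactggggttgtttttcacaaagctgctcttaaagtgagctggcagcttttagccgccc
TXNIP: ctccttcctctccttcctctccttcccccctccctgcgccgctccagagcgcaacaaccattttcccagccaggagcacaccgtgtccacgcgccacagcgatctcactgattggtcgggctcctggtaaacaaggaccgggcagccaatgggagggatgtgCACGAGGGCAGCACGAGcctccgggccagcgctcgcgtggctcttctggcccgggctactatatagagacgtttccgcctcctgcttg
ARRDC4: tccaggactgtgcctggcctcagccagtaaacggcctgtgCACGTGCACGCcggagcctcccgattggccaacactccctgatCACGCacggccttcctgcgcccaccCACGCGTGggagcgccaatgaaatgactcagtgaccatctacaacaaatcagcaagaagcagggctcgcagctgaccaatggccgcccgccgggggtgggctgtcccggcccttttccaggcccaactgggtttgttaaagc

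Both strands of 35116 RefSeq windows of 300 bases, from 250 before to 50 after each start, were searched for these letters. This paired element was found once in TXNIP, 88 bases before the start, and in 0.057% of all windows. ARRDC4 held a single CACGTG, the full E-box, 210 bases before its start, against 7.26% of windows, but no paired element with this spacing. CACGTG contains ACGTG on both strands, so 2 of the 6 HIF cores marked in ARRDC4 are that E-box. ACGTG was present in 21.4% and GCGTG in 36.5% of windows. Neither window of ARRDC3, which has 2 RefSeq starts, held either core, and nor did the window of ARRDC1. Each of the 2 windows of ARRDC2 held GCGTG at 2 places, as did the first window of TXNIP, and the second window of TXNIP held ACGTG 162 bases before its start. All 5 genes matched the RefSeq table, with 8 windows between them, and a match is a match of letters, not a site shown to be bound.

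The files held between 11881000 and 14730081 counts per library, with medians of 12055602 in WT, 13303063 in PT2385 and 14430108 in KO. EPAS1, the gene of HIF2α, stood at 256 ± 20.6 CPM in WT, 238 ± 15.3 in PT2385 and 22.1 ± 2.61 in KO (SD, n = 3). CPM here are counts scaled to library size after TMM normalization. EPAS1 was lower in the libraries labelled as knockout, with 262 to 360 reads left in each. A lower mRNA level does not tell a knockout from silencing, and the paper describes siRNA against HIF2α but no knockout line. The 6 renal epithelial markers checked, PAX8 among them, were above 3 counts in every library, and their summed CPM ran from 5894 to 6348 in WT, from 5577 to 6276 in PT2385 and from 5818 to 6188 in KO. Most of that sum was VIM, a mesenchymal gene (4733, 4396 and 4257 CPM in WT, PT2385 and KO), and single markers differed. PAX2 stood at 34.2 ± 3.80, 25.3 ± 3.12 and 13.7 ± 2.38 CPM in the same order, KRT8 at 405 ± 27.9, 487 ± 39.4 and 586 ± 27.5, and KRT18 at 161 ± 16.9, 223 ± 35.1 and 289 ± 31.5 (SD, n = 3), and their part in the results below was not tested. None of the 9 endothelial, leukocyte and hepatocyte markers was above 3 counts in all libraries, and the highest count of any was 18. In bulk RNA a lower level in each cell and fewer cells with that RNA cannot be told apart.

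In the WT cells the family was mostly ARRDC3. Divided by the merged exon length of each gene, ARRDC3 stood at 31.6 ± 1.79 CPM per kb in WT (SD, n = 3), ARRDC1 at 7.46 ± 0.290, ARRDC2 at 3.86 ± 0.489, TXNIP at 2.68 ± 0.872 and ARRDC4 at 1.17 ± 0.206. ARRDC2 and TXNIP were neighbours in this order, with ranges of 3.30 to 4.23 and 1.68 to 3.26 CPM per kb that came close without crossing. ARRDC3 made up 67.5% ± 2.25 of the summed level per length of the 5 genes in WT, 22.5% ± 3.10 in PT2385 and 20.9% ± 5.21 in KO. The sum itself went from 46.8 ± 1.12 CPM per kb in WT to 19.5 ± 1.72 in PT2385 and 26.1 ± 3.17 in KO, and the groups did not overlap in either comparison with WT.

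With drug or knockout the order changed. In PT2385, ARRDC1 led at 7.12 ± 0.370 CPM per kb, followed by ARRDC3 at 4.35 ± 0.247, ARRDC2 at 3.67 ± 0.588 and TXNIP at 3.16 ± 1.17. The last 3 of these overlapped between replicates, and ARRDC4 was below them at 1.18 ± 0.218. In KO the order was ARRDC1 at 8.90 ± 0.318, TXNIP at 6.99 ± 3.71, ARRDC3 at 5.34 ± 0.752, ARRDC2 at 4.07 ± 0.298 and ARRDC4 at 0.771 ± 0.421. TXNIP ran from 4.27 to 11.2 CPM per kb there and overlapped with ARRDC1 and ARRDC3.

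**Figure D1:**
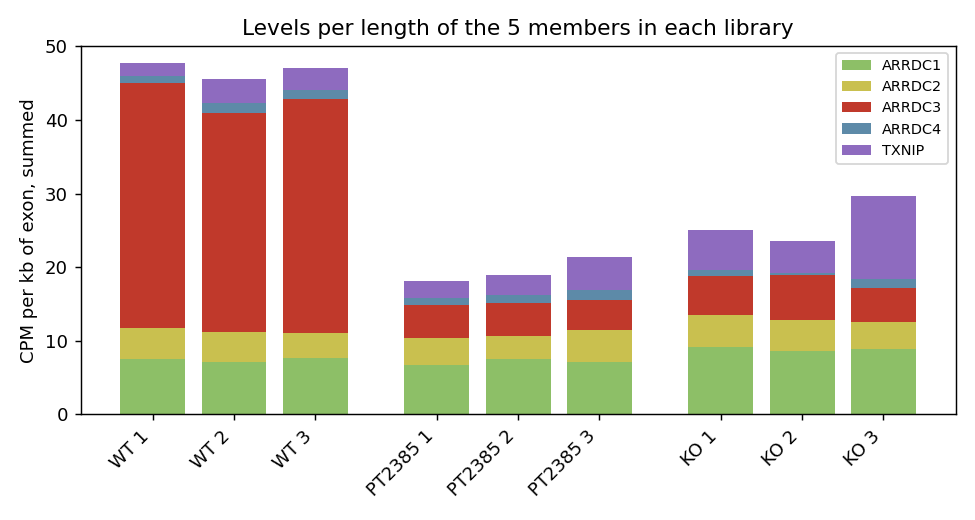
Stacked bars give CPM per kb of merged exon (vertical axis) for the 5 members in each of the 9 libraries. The bars of WT reach 45.5 to 47.7 and are mostly ARRDC3, while those of PT2385 reach 18.1 to 21.4 and those of KO 23.5 to 29.6.

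Upon PT2385 treatment ARRDC3 was down-regulated 7.29-fold, and no other member was called. Here and below a gene was called when its adjusted p in edgeR's quasi-likelihood test over all genes was under 0.05. For the members a call is a description, since they were picked with these values known, and an uncalled member is not shown to be unchanged. By that rule 1 of the 5 members was called, beside 7.7% of the 15089 genes tested (4.62% lower and 3.08% higher). In KO, ARRDC3 was again down-regulated while TXNIP and ARRDC1 were up-regulated, so 3 of 5 members were called, beside 30.1% of 15192 genes (15.4% lower and 14.7% higher). Between KO and PT2385, ARRDC1 and TXNIP were called, both higher in KO, beside 18.8% of 15402 genes (10.3% lower and 8.47% higher). By another reading, replicates of the compared groups did not overlap for 1 of 5 members with PT2385, beside 25.9% of genes (12.5% lower and 13.4% higher). In KO against WT this held for 3 of 5, beside 44% of genes (23% lower and 21% higher), and in KO against PT2385 for 2 of 5, beside 35.1% (18.5% lower and 16.6% higher). PT2385 and KO share the WT libraries as their control. The median log2 fold change of the 5 members was -0.07 for PT2385 against WT and 0.09 for KO against WT, against 0.000993 and 0.00378 for all tested genes. Between KO and PT2385 it was 0.29, against -0.00348.

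ARRDC3 (ENSG00000113369, chromosome 5 of GRCh38, 91368631 to 91383317, minus strand) had 166, 148 and 159 CPM in the 3 WT replicates, from 1977, 1801 and 1904 reads. PT2385-treated cells had 22.4, 22.4 and 20.3 CPM and KO cells 26.8, 30.2 and 22.8. Every treated and every knockout replicate was far below every WT replicate. The log2 fold change was -2.87 upon PT2385 treatment (standard error, SE, 0.0780, 95% interval -3.04 to -2.70), a 7.29-fold lower level. In KO it was -2.55 (SE 0.0966, 95% interval -2.77 to -2.34), a 5.88-fold lower level. Leaving out single replicates gave values from -2.90 to -2.81 for PT2385 and from -2.66 to -2.45 for KO. Of all genes tested, 0.113% had a larger fall with PT2385 and 0.731% in KO.

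The KO replicates of ARRDC3 all lay above the PT2385 replicates. The log2 difference of KO against PT2385 was 0.29 (SE 0.118, 95% interval 0.03 to 0.55), and it was not called. Without KO replicate 3, the lowest of its group, it was 0.39 and was called, as it was with the replicate number as a block (0.29). ARRDC3 overlaps the lncRNA gene ARRDC3-AS1 on the opposite strand over 145 bases of exon, and the highest count of ARRDC3-AS1 in any library was 27.

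TXNIP (ENSG00000265972, chromosome 1, 145992435 to 145996579, minus strand) had 6.04, 11.8 and 11.2 CPM in WT, 8.35, 9.60 and 16.2 in PT2385 and 19.7, 15.4 and 40.4 in KO, from 72 to 590 reads per library. The KO replicates all lay above WT, whereas the PT2385 replicates spread across WT, and PT2385 replicate 3 also exceeded KO replicate 2. The log2 fold change in KO was 1.40 (SE 0.340, 95% interval 0.65 to 2.14), a 2.63-fold higher level. KO replicate 3 decided much of that size, and without it the log2 fold change was 0.87 and was still called.

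For TXNIP the PT2385 treatment gave a log2 fold change of 0.24 (SE 0.263, 95% interval -0.33 to 0.81) and was not called. Its sign turned without WT replicate 1 and without PT2385 replicate 3 (-0.10). Against PT2385, KO was 1.14 higher on the log2 scale (SE 0.341, 95% interval 0.39 to 1.90). That call was lost with DESeq2 (1.15) and without PT2385 replicate 1 (0.97), PT2385 replicate 2 (1.04), KO replicate 1 (1.29) or KO replicate 3 (0.61).

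ARRDC4 (ENSG00000140450, chromosome 15, 97960703 to 97973833, plus strand), a relative of TXNIP that also responds to glucose, was counted at only 22 to 81 reads per library. It had 3.86, 5.51 and 4.91 CPM in WT, 3.94, 4.69 and 5.70 in PT2385 and 2.93, 1.53 and 4.93 in KO. The groups overlapped in every comparison. Its log2 fold change upon PT2385 treatment was 0.00399 (SE 0.197, 95% interval -0.43 to 0.43), and its sign turned when some single libraries were left out (-0.14 to 0.13). In KO it was -0.59 (SE 0.333, 95% interval -1.32 to 0.15), which was not called. Without KO replicate 3, the highest of that group, it was -1.10 and was called. The KO library with the most TXNIP was thus also the KO library with the most ARRDC4. KO against PT2385 gave -0.61 for ARRDC4 (SE 0.337, 95% interval -1.35 to 0.14), not called, and -1.12 without KO replicate 3, which was called.

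ARRDC1 (ENSG00000197070, chromosome 9, 137605685 to 137615360, plus strand) had 28.5, 27.1 and 29.2 CPM in WT, 25.5, 28.3 and 27.1 in PT2385 and 34.9, 32.5 and 33.7 in KO. Replicates of KO all lay above those of both other groups, which overlapped with each other. ARRDC1 rose in KO by 0.27 on the log2 scale (SE 0.0803, 95% interval 0.09 to 0.44), a 1.20-fold higher level. This small difference lost its call with DESeq2 (0.27), with no filter on low counts (0.26), and without WT replicate 1 (0.27), 2 (0.23) or 3 (0.29) or KO replicate 1 (0.24). Against PT2385 the difference was 0.32 (SE 0.0874, 95% interval 0.12 to 0.51), a 1.25-fold higher level in KO, and that call was lost without PT2385 replicate 1 (0.29), 2 (0.36) or 3 (0.32) or KO replicate 1 (0.29).

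The log2 fold change of ARRDC1 upon PT2385 treatment was -0.07 (SE 0.0850, 95% interval -0.26 to 0.11). ARRDC1 shares 35 bases of exon with ARRDC1-AS1 on the opposite strand, and the log2 fold change of that gene in KO was -0.01 (SE 0.109). The part of shared reads in the values of ARRDC1 was not tested.

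ARRDC2 (ENSG00000105643, chromosome 19, 18001132 to 18014102, plus strand), the least described of the family, was not called in any comparison or alternative. It had 19.6, 18.7 and 15.3 CPM in WT, 16.6, 14.5 and 19.9 in PT2385 and 19.7, 19.6 and 17.3 in KO, and all groups overlapped. Its log2 fold change was -0.07 upon PT2385 treatment (SE 0.134, 95% interval -0.37 to 0.22) and 0.09 in KO (SE 0.119, 95% interval -0.17 to 0.35). For KO against PT2385 it was 0.14 (SE 0.129, 95% interval -0.14 to 0.43).

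**Figure D2:**
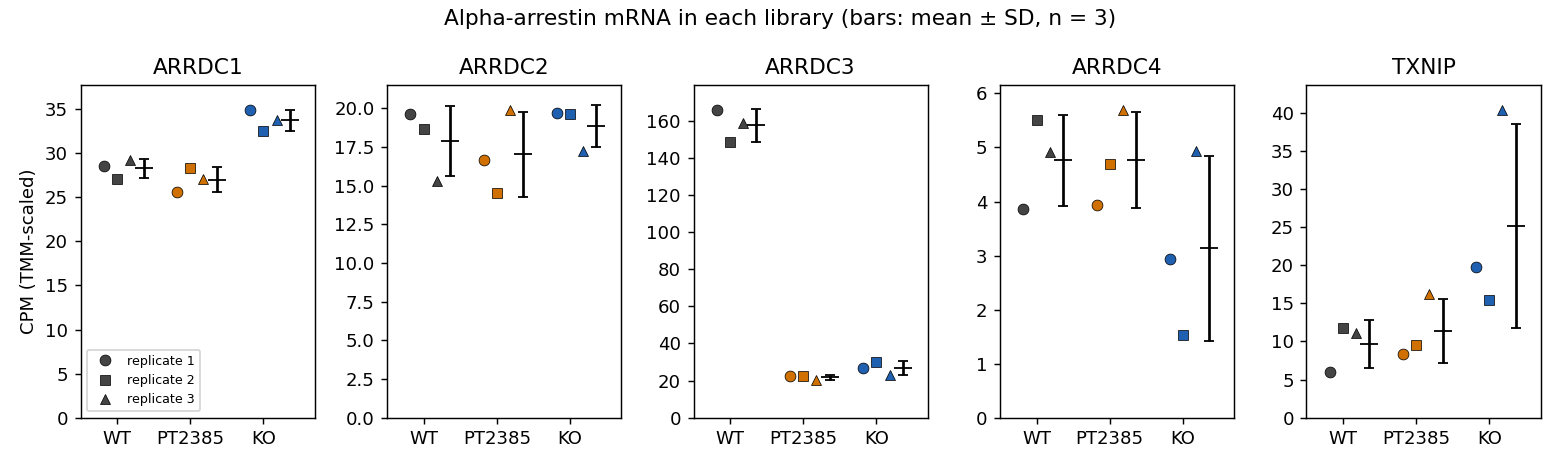
Each panel gives CPM of a member (vertical axis, linear and starting at 0) in the 3 groups, with a symbol for each replicate and the mean ± SD as a bar. ARRDC3 drops from 148 or more in WT to 30.2 or less elsewhere, and TXNIP is highest in KO replicate 3, at 40.4.

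**Figure D3:**
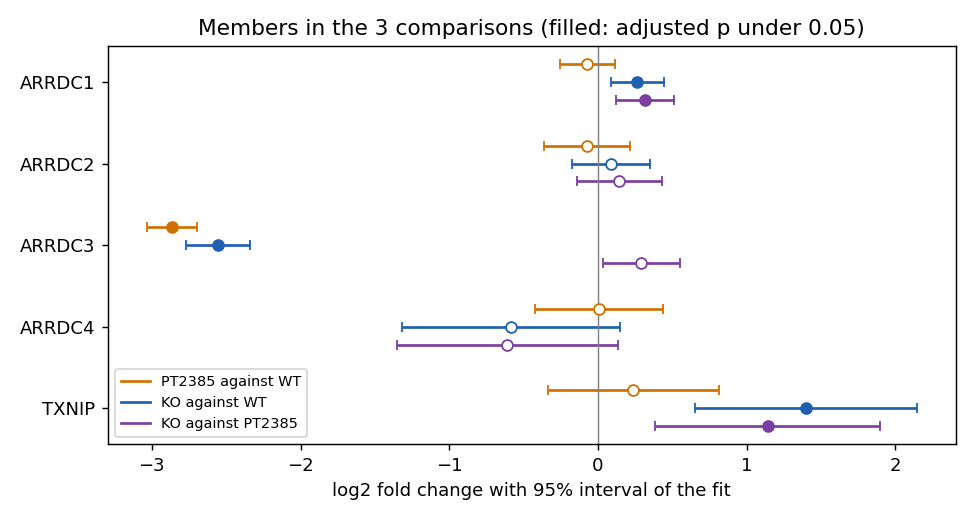
Points give the log2 fold change (horizontal axis) of each member in the 3 comparisons, with the 95% interval of the fit, and are filled where the gene was called. ARRDC3 stands alone at -2.87 and -2.55 against WT, and the intervals of ARRDC4 and TXNIP are the widest.

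Replicates of a group differed more in TXNIP and ARRDC4 than in the other members, and they did so together. In each group the replicate with the least TXNIP also had the least ARRDC4 and the replicate with the most TXNIP had the most ARRDC4, and ARRDC3 ran in the reverse order. This was noticed in the values and is a description. Of 11486 genes with a mean of at least 50 counts, 2.03% shared the order of TXNIP in all 3 groups and 1.21% had its reverse. Parts of this order lie within counting error, namely PT2385 replicates 1 and 2 of ARRDC3 and WT replicates 2 and 3 of TXNIP (143 and 134 reads) and of ARRDC4 (67 and 59 reads). In every group the largest library (12296841 counts in WT, 14318384 in PT2385 and 14730081 in KO) was also the highest in TXNIP and ARRDC4. In WT and PT2385 the whole order of replicates in TXNIP was that of their total counts, while in KO the library with the fewest counts was not the lowest in TXNIP. The part of depth in these differences was not tested. ARRDC4 was counted at 22 reads in the lowest KO library and 72 in the highest.

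**Figure D4:**
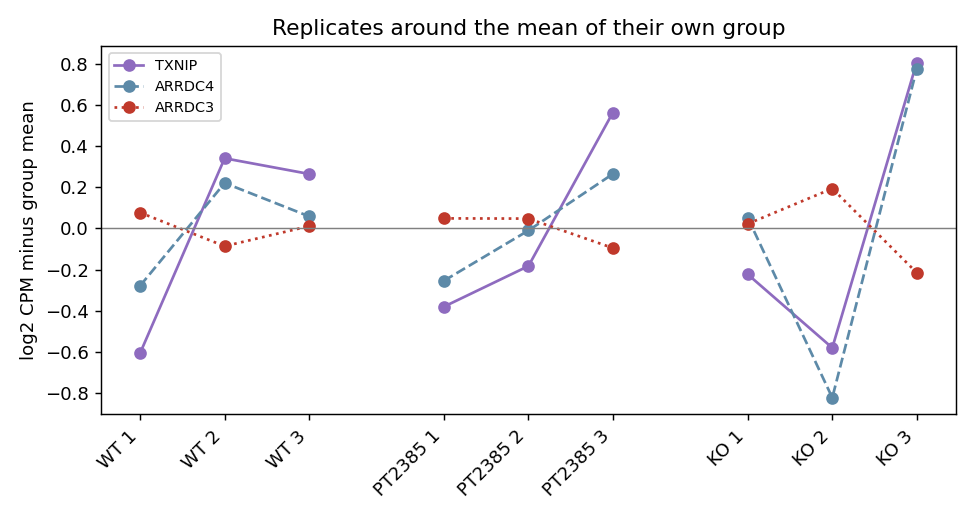
Points give log2 CPM minus the mean of the own group (vertical axis) for TXNIP, ARRDC4 and ARRDC3 in each library, and lines join replicates of a group, which have no order of their own. TXNIP and ARRDC4 move together, up to 0.80 and 0.77 in KO replicate 3, where ARRDC3 is at its lowest (-0.215).

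The genes that surround the alpha-arrestins were followed in 8 lists with 61 genes in all, also chosen with earlier results known. Their calls and adjusted p come from the fit over all genes. Given that choice they describe these data and are not independent tests. Of the 49 tested upon PT2385 treatment 10 were called (2 up-regulated and 8 down-regulated), beside the 7.7% of all genes. The 2 up-regulated genes include SLC2A2, which had 3 reads or fewer in every WT library and passed the filter only through the PT2385 group. In KO 18 of 48 were called (6 up-regulated and 12 down-regulated), beside 30.1%. Between KO and PT2385 17 of 49 were called, 7 higher and 10 lower in KO, beside 18.8%.

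Among 9 ligases of the NEDD4 family, which alpha-arrestins recruit through their PPxY motifs, NEDD4 itself was lower in both settings and lower in KO than with the drug. It had 144, 146 and 157 CPM in WT, 85.7, 85.6 and 85.9 in PT2385 and 39.8, 34.8 and 47.0 in KO, and no 2 groups overlapped. Its log2 fold change was -0.80 with PT2385 (SE 0.0620, adjusted p = 4.51e-06, edgeR) and -1.87 in KO (SE 0.0981, adjusted p = 1.47e-07). KO against PT2385 gave -1.08 (adjusted p = 4.83e-05, edgeR). NEDD4L also fell with PT2385 (-0.26), and SMURF2 (-0.49) and HECW2 (-0.88) fell in KO, where the median of the list was -0.20 on the log2 scale. None of the 9 was called higher in any comparison, beside 3.08%, 14.7% and 8.47% of all genes called higher with PT2385, in KO and in KO against PT2385. Called lower were 2 of 9 with PT2385, 3 of 9 in KO and 4 of 9 in KO against PT2385. Of all genes 4.62%, 15.4% and 10.3% were called lower in those comparisons. The list was chosen with earlier results known, so nothing particular to the family is read from these counts. Against PT2385 WWP2 (-0.24), SMURF2 (-0.44) and HECW2 (-1.03) were lower in KO as well. The call of NEDD4L was lost in 5 of 14 alternatives and that of WWP2 in 9 of 14.

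Of 7 PPxY adaptors and partners of the vesicle-sorting machinery none was called upon PT2385 treatment (list median -0.07), beside 7.7% of all genes. The knockout had 1 called higher and 2 lower, beside 14.7% and 15.4% of all genes. Against PT2385 it had 2 higher and 1 lower, beside 8.47% and 10.3%. In KO the adaptor NDFIP2 (-0.30) and the ATPase VPS4A (-0.26) fell and its paralog VPS4B rose (0.22), and against PT2385 VPS4A (-0.51) was lower and VPS4B (0.27) and PDCD6IP (0.21) were higher in KO. In KO against WT the calls of VPS4A and VPS4B were lost in 8 and 7 of 14 alternatives, and in KO against PT2385 those of PDCD6IP and VPS4B in 7 and 4 of 14. Of the other genes with an arrestin fold, ARRDC5 and the cone arrestin gene ARR3 had 0 reads in every library, and 5 of the 8 were tested. ARRB1, which encodes β-arrestin 1, rose from 23.8 ± 1.51 CPM in WT to 32.7 ± 2.61 in KO (SD, n = 3), a log2 fold change of 0.47 (SE 0.0943, adjusted p = 0.00310, edgeR). It was also higher in KO than with PT2385 (0.43).

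The thioredoxin system, the redox partner of TXNIP, moved little. TXNRD1, the cytosolic thioredoxin reductase, rose by 0.34 on the log2 scale with PT2385 (adjusted p = 0.00649, edgeR) and by 0.19 in KO, and TXN rose by 0.25 in KO. The list median was 0.04 with PT2385 and 0.15 in KO. Of the 5 genes, 1 was called with PT2385, 2 in KO and none between KO and PT2385. The shares of all genes called were 7.7%, 30.1% and 18.8% in the same order. The call of TXNRD1 in KO was lost in 4 of 14 alternatives. Of the glucose-sensing factors, MLXIPL, the gene of ChREBP, had 0 reads in every library. MLXIP, the gene of MondoA, had 364 ± 3.44 CPM in WT and 296 ± 12.6 in PT2385 (SD, n = 3), a log2 fold change of -0.30 (SE 0.0544, adjusted p = 0.00467, edgeR). It was not called in KO, nor was its partner MLX in any comparison.

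Among the 14 glucose transporters, SLC2A1, the gene of the TXNIP cargo GLUT1, fell by 2.30 on the log2 scale with PT2385 and by 1.80 in KO, and was 0.49 higher in KO than with PT2385 (adjusted p = 0.00161, edgeR). SLC2A3 fell with PT2385 (-0.58) and SLC2A9 rose in KO (1.01). SLC2A2 had 1, 1 and 3 reads in WT and 20, 15 and 18 in PT2385, at least 5.33-fold higher against a floor of 3 reads per library. The list median was 0.12 with PT2385, also with SLC2A2 at that bound, and 0.07 in KO. Between KO and PT2385, SLC2A3 (0.78) and SLC2A6 (0.26) were also higher and SLC2A8 (-0.40) lower in KO. The calls of SLC2A3, against WT with PT2385 and against PT2385 in KO, were each lost in 4 of 14 alternatives, and that of SLC2A9 in KO in 1 of 14. In KO against PT2385 the calls of SLC2A6, and of NOTCH1 and SMURF2 from the other lists, were each lost in 3 of 14.

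Of 7 reported partners and cargoes 5 were tested, and ITGB4, a known cargo of ARRDC3, had at most 3 reads in any library and was not. DDIT4, a stress-induced inhibitor of mTORC1 that binds TXNIP, fell from 403 ± 76.2 CPM in WT to 64.7 ± 22.9 in PT2385 and 86.5 ± 19.9 in KO (SD, n = 3), with adjusted p of 6.58e-06 and 3.07e-06 (edgeR). The thrombin receptor gene F2R (-0.72) and NOTCH1 (-0.27) fell in KO, and both were lower in KO than with PT2385 (-0.70 and -0.28). The list median was -0.04 with PT2385 and -0.27 in KO.

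Of 8 genes of the response to glucocorticoids, which are known to induce TXNIP in other cells, the receptor gene NR3C1 fell with PT2385 (-0.66) and in KO (-0.31), and the phosphatase gene DUSP1 fell with PT2385 (-0.74) and in KO (-1.39). FKBP5 (-0.29) fell and PER1 (0.49) rose in KO. TSC22D3 (-0.35 with PT2385 and 0.05 in KO), KLF9 (-0.23 and 0.20) and SGK1 (0.33 and 0.20) were not called. Of the 7 genes tested, 2 were called lower with PT2385 and 0 higher, beside 4.62% and 3.08% of all genes. In KO 3 were called lower and 1 higher, beside 15.4% and 14.7%. Against PT2385 KO had 2 lower and 1 higher, beside 10.3% and 8.47%. Relative to PT2385, NR3C1 was higher (0.34) and FKBP5 (-0.37) and DUSP1 (-0.66) were lower in KO. The list median was -0.23 with PT2385 and 0.05 in KO, and the call of DUSP1 between KO and PT2385 was lost in 6 of 14 alternatives. In KO against WT the call of FKBP5 was lost in 4 of 14 and those of PER1 and NR3C1 in 2 of 14 each, and against PT2385 FKBP5 lost its call in 3 and NR3C1 in 2 of 14.

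**Figure D5:**
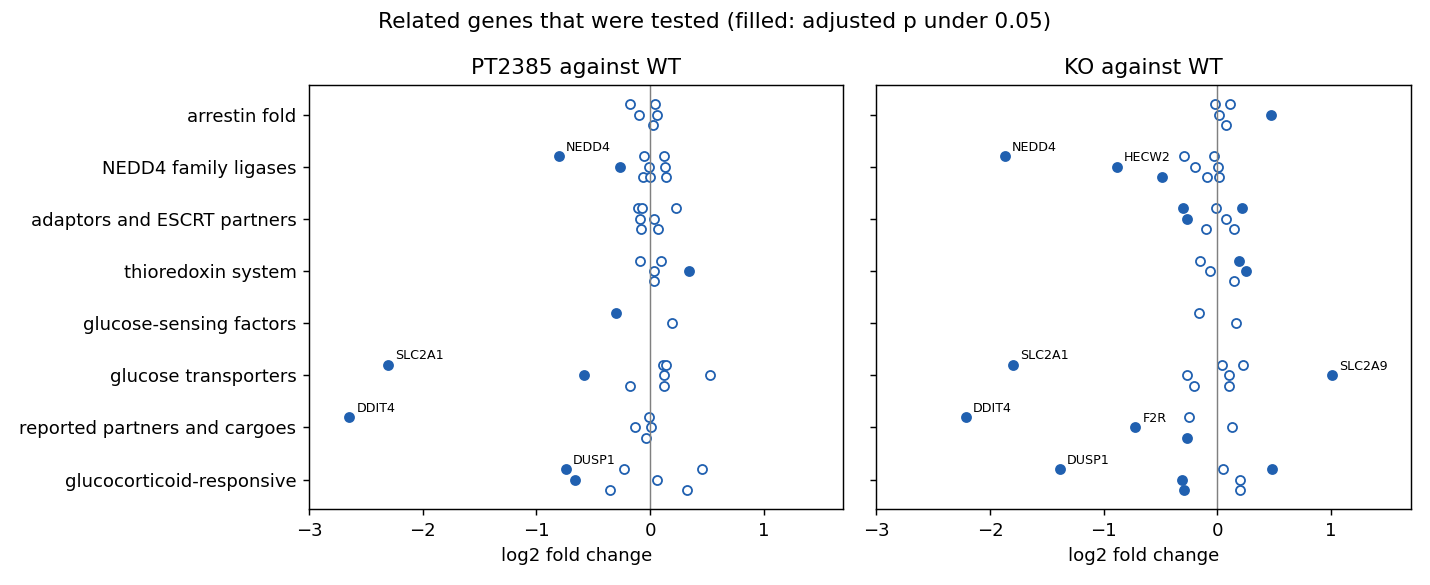
Points give the log2 fold change (horizontal axis) of each tested gene of the 8 lists (rows) for PT2385 against WT and KO against WT, filled where the gene was called. SLC2A2 is left out because WT held 3 reads or fewer. NEDD4, SLC2A1 and DDIT4 stand to the left in both panels.

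The genes whose levels ran most like those of a member over all 9 libraries were found by Pearson correlation of log2 CPM among 11140 genes, as a description. For ARRDC3 they were KIAA0513 (r = 0.991), ITGB8 (0.990) and LUCAT1 (0.990), all of which were high in WT and low in both other groups. ITGB8, for example, had 374 CPM in WT, 88.8 in PT2385 and 90.6 in KO. For TXNIP they were TTC7A (0.985), EHD1 (0.983) and MRPL15 (0.980), and for ARRDC4 FSTL3 (0.972), GAK (0.968) and SHISA2 (0.957). For ARRDC1 they were ADAMTS2 (0.963), ZNF43 (0.960) and AOX1 (0.954), and for ARRDC2 FKBP2 (0.935), DMAC1 (0.909) and ZKSCAN5 (0.896). With Spearman correlation or without the KO libraries at most 1 of the 3 genes stayed in the list of any member.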

How the data were processed

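RNA was sequenced in 9 libraries. The authors used FastQC for read quality, cutadapt for trimming, STAR for alignment to GRCh38 and featureCounts for counting per gene. The annotation release and the strand setting are not given in the sources used here, so reads of overlapping genes cannot be told apart. The authors deposited raw read counts, without normalization, in 9 columns, all of which were assigned by title, and 58207 of 58735 identifiers matched GENCODE 44.

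Each pair of groups was fitted on its own with edgeR 4.0.16 in R 4.3.3 (TMM, filterByExpr with a minimum of 10 counts, quasi-likelihood F test, Benjamini-Hochberg over all tested genes, threshold 0.05). All 5 members passed the filter in each comparison. Standard errors were taken from the log2 fold change and its F, and 95% intervals from the t distribution of the fit. The steps were tested on data simulated for PT2385 against WT only, with planted fold changes larger than that of ARRDC1 in KO. Levels per length used merged exons of all annotated transcripts, which can understate genes with long unused exons. Counts up to 3 were the floor. With 3 replicates, exact two-sided permutation tests cannot go below p = 0.1. Nothing in the labels says that replicates came from separate experiments, so p-values measure the spread between these libraries, which may be technical.

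The members, the lists and the rule for named genes (the members, EPAS1, called genes of the lists with up to 3 uncalled ones of the highest mean count, and the 3 genes most like each member with a mean of at least 50 counts) were chosen with earlier results of these data known. ARRDC3-AS1, ARRDC1-AS1, uncalled list genes at 0 or near the floor, and the order of replicates were named after their values were seen. Other list genes enter the counts and medians without being named. Alternatives were DESeq2 1.42.0, scaling by RLE, by the upper quartile or by library size alone, no filter, at least 10 counts in every library, the replicate block, a single model of 9 libraries, and leaving out each replicate.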

Additional observations from a re-analysis of the deposited data

Results flagged for a closer look

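WWP2, a ligase of the NEDD4 family, was higher in every PT2385 replicate and lower in every KO replicate than in any WT replicate (72.6 ± 0.768 CPM in WT, 79.5 ± 4.19 in PT2385, 67.6 ± 1.96 in KO, SD, n = 3). The direct difference between KO and PT2385 was -0.238 on the log2 scale (standard error 0.0706), and its call was lost in 9 of 14 alternatives. SLC2A8, a glucose transporter gene, was also on opposite sides of WT in every replicate (37.4 ± 0.745, 40.7 ± 3.06 and 31.0 ± 3.39 CPM in WT, PT2385 and KO, SD, n = 3). Its difference between KO and PT2385 was -0.398 (standard error 0.102), and its call was lost in 4 of 14. Neither gene was called against WT in either comparison. Among the 5 members and the 61 related genes, these genes were picked because PT2385 and KO replicates lay on opposite sides of WT. That choice separates KO from PT2385 in advance, so no p is given for the difference. Replicates lay wholly above WT for 13.4% of all genes tested with PT2385, and wholly below WT for 23% in KO. The share of all genes with both was not computed, so nothing particular is read from this pattern.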

How the results depend on the processing

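ARRDC3 kept its direction and its call against WT in all 14 alternatives of both comparisons, and so did TXNIP in KO against WT (0.87 to 1.66 with a replicate left out). With PT2385, ARRDC4, ARRDC2 and TXNIP changed sign under some alternatives, and no direction is given for them. ARRDC4 was reversed with the replicate block (-0.00088), and with a replicate left out ARRDC4 ran from -0.14 to 0.13, ARRDC2 from -0.20 to 0.023 and TXNIP from -0.10 to 0.41. In KO against WT, ARRDC1 lost its call with DESeq2 (0.27) and with no filter (0.26), ARRDC4 gained a call with no filter (-0.59), and with a replicate left out ARRDC1 ran from 0.23 to 0.29, ARRDC2 from -0.014 to 0.16 and ARRDC4 from -1.10 to -0.25. In KO against PT2385, TXNIP lost its call with DESeq2 (1.15), ARRDC3 gained one with the replicate block (0.29), and with a replicate left out ARRDC1 ran from 0.29 to 0.36, ARRDC3 from 0.19 to 0.39, ARRDC4 from -1.12 to -0.27 and TXNIP from 0.61 to 1.49. ARRDC1-AS1 in KO against WT ran from -0.10 to 0.032 and ARRDC3-AS1 in KO against PT2385 from -0.30 to 0.27. The cause was not tested.

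Genes called with PT2385 against WT numbered 1162, and 2305 with the replicate block, and 574 (without PT2385 replicate 2) to 1451 (without PT2385 replicate 1) with a replicate left out. Without WT replicate 1, 2 or 3 they numbered 654, 581 and 728. Between KO and PT2385 they numbered 2897, and 1836 (without PT2385 replicate 2) to 3190 with a replicate left out, and the related genes called 17, and 6 to 20. Those 17 were 6 without PT2385 replicate 2, 11 without PT2385 replicate 3, 6 without KO replicate 1 and 10 without KO replicate 2. Replicate numbers are shared by the groups. Deviations of same-numbered libraries correlated at 0.057 to 0.237 between PT2385 and WT (15123 genes), against -0.24 to 0.0262 for other numbers. Between KO and WT they correlated at -0.00454 to 0.232, against -0.251 to 0.139. Between KO and PT2385 the values were 0.027 to 0.239, against -0.21 to 0.0686. Pairing was to be used only if every same-numbered correlation exceeded 0.1, so the libraries were not taken as pairs. In PT2385 and WT 6 of 6 libraries correlated best with their own number, and 4 of 6 in each comparison with KO. This is a hint of pairing from the data only.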

Other observations

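ARRDC3-AS1 (ENSG00000281357, chromosome 5 of GRCh38, 91380349 to 91616105, plus strand), a lncRNA gene that runs opposite to ARRDC3, had more reads in the groups in which ARRDC3 was down-regulated. Its start lies 252 bases upstream of the second RefSeq start of ARRDC3. Relative to the first start, whose upstream sequence is shown above, it lies downstream and inside ARRDC3. It had 5, 2 and 2 reads in the WT replicates, 23, 16 and 17 in PT2385 and 27, 16 and 17 in KO. Every library of both groups lay above WT, also in CPM. Replicates lay wholly above WT for 13.4% of all genes tested with PT2385 and for 21% in KO. Most WT libraries lie at or under the floor of 3 reads, and the gene was chosen for this pattern, so no fold change against WT and no p is given. Of its annotated exons 145 bases are shared with exons of ARRDC3, and whether reads were assigned by strand is not given. The gene was singled out after its values were seen.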
